A study of Danio rerio with 6 samples.

Results

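Transcripts of 10 interferon-induced effector genes were followed in 6 RNA libraries of zebrafish (Danio rerio) larvae. The genes are isg15, rsad2, ifit8, ifit14, ifit15, mxe, ifi27.2, herc56.4, rnf213b and znfx1, found by their Ensembl gene IDs among 25859 genes, and each was present in each file. They were chosen by their higher levels in knockout than in control larvae in these same libraries, so their fold changes and calls below describe the choice and support nothing further. Of the 10 genes, 10 passed the filter on low counts. Apart from rnf213b and znfx1, they passed it only through the knockout pools, as their control pools held 0 to 15 reads each.

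The knockout larvae were hspd1-/- and the control larvae hspd1+/+, both taken at 5 days post fertilization (dpf) from in-crosses of heterozygous carriers, the F4 generation of a knockout line whose allele and strain background the labels do not give. Each library came from a pool of 5 genotyped larvae, repeated for 3 mating sets, which gave 3 knockout pools and 3 control pools. Larvae of both genotypes were anesthetized with tricaine and had lost the tip of the caudal fin for genotyping before RNA was taken. HSP60, the product of hspd1, is a chaperonin that folds proteins in the mitochondrial matrix, and the comparison asks which transcripts differ when it is disrupted.

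Interferons are secreted proteins that cells release when sensors detect foreign or misplaced nucleic acid. Fish make their own type I interferons (the ifnphi genes), which bind cell-surface receptors of the CRFB family and act through JAK kinases and a transcription factor complex that includes STAT2 and IRF9 to turn on a large set of target genes. The products of those targets limit viruses by tagging proteins, by making altered nucleotides, by binding foreign RNA or by assembling on viral particles, and larvae kept without infection normally hold little of their transcripts. One adaptor of the sensors, MAVS, sits on the outer membrane of mitochondria.

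Libraries held 18517874 to 19131375 counts in the knockout pools and 18853982 to 20331675 counts in the control pools. The targeted gene hspd1 stood at 73.4, 67.9 and 82.3 CPM (the usual depth-scaled count, with library size adjusted by the trimmed mean of M-values) in knockout pools 1, 2 and 3, against 124, 133 and 132 CPM in control pools 1, 2 and 3. Markers of larval organs, from liver to retina, were all detected (16 of 16 genes), and 4 of them differed. The liver marker fabp10a stood at 48.8, 59.0 and 52.9 CPM in knockout pools 1, 2 and 3, against 218, 335 and 299 CPM in the control pools, and the pancreas marker prss1 at 318, 313 and 349 CPM against 747, 1140 and 1326 CPM in the control pools. The lens marker CRYAA was also called lower and the heart marker myh6 higher (log2 fold changes of −0.97 and 0.59, edgeR), but CRYAA did not pass without knockout pool 1 or 3 or control pool 1 or 2 (0.0767 to 0.121), and myh6 passed in none of the fits that left out 1 pool (0.0549 to 0.125). The part of these organ differences in the levels of the 10 genes was not tested. In such bulk libraries, a change in the number of cells and a change in RNA per cell cannot be told apart. Reads were not stranded, and the 10 genes include members of families of similar copies, so the split of reads within a family is uncertain.

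All 10 genes were higher in the knockout pools at an adjusted p under 0.05 (edgeR quasi-likelihood test, Benjamini-Hochberg adjustment over 21602 genes), where 1.47% of all genes tested were called higher, 2.54% lower and 4.01% in either direction. For each of the 10, the lowest knockout pool lay above the highest control pool, which held for 10.8% of all genes tested. Fitted fold changes ran from 5.05 for znfx1 to 90.7 for ifit14, and single pools moved some of them by over 1.5 times. Without knockout pool 2 the log2 fold change was 4.40 for rsad2, 4.41 for ifit8, 5.50 for ifit14 and 3.66 for ifit15, against 5.12, 5.204, 6.50 and 4.35 with all pools. Without control pool 1 it was 4.15 for herc56.4, against 3.47, and without control pool 3 it was 6.06 for ifit8. Summed reads per gene ran from 115 to 1600 over the knockout pools and from 3 to 115 over the control pools, where levels were low throughout. With so few reads the control levels are known only roughly, and the vertical bars in the plot of levels by pool show the counting error.

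**Figure D1:**
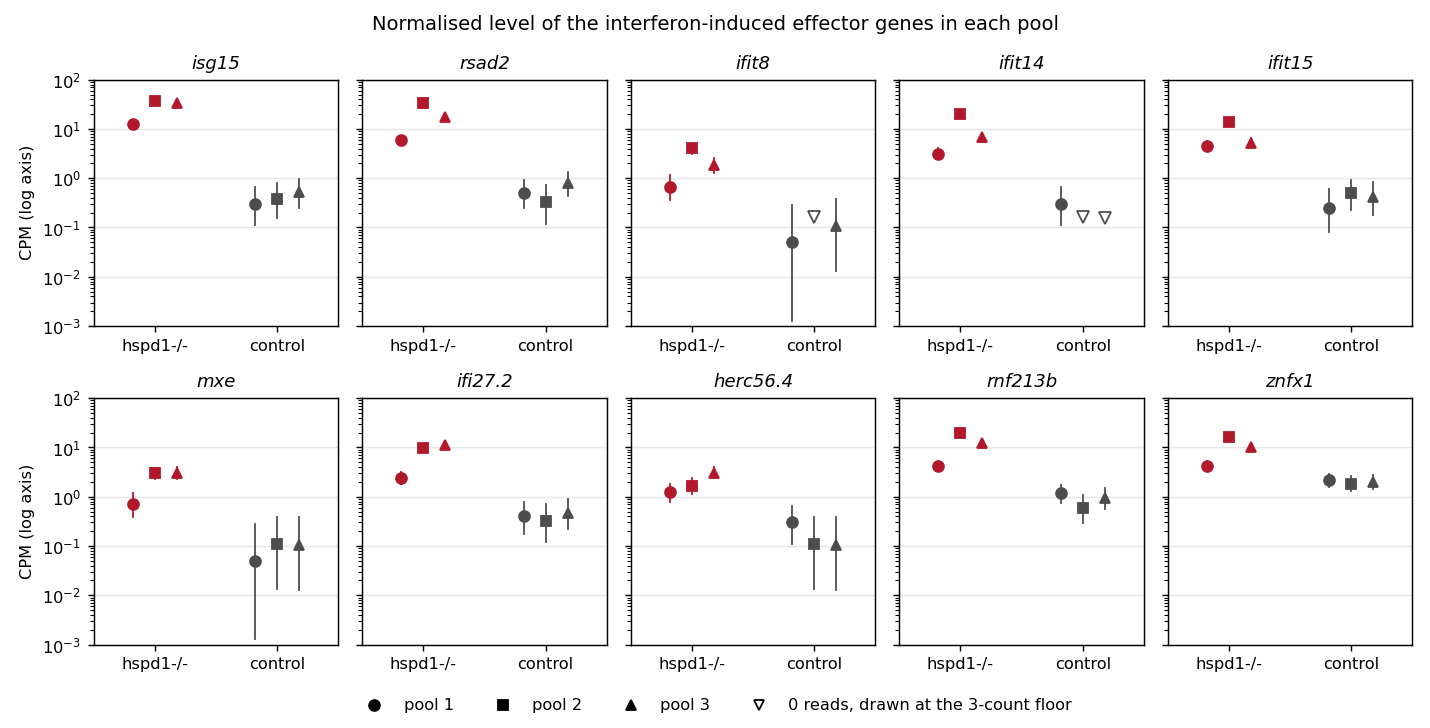
Normalised level (CPM, log axis) of each of the 10 genes in the hspd1-/- pools (left, red) and the control pools (right, grey), 1 symbol per pool, with exact 95% Poisson counting intervals as bars. Open triangles mark control pools with 0 reads and are drawn at the limit that 3 counts would give. Knockout symbols lie above control symbols in every panel, and knockout pool 1 is the lowest knockout pool in each.

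The ISG15 system tags proteins. isg15 (ENSDARG00000086374) codes for a small ubiquitin-like protein that is attached to other proteins after interferon, and in human cells the ligase HERC5 attaches it. isg15 stood at 12.9, 36.8 and 34.0 CPM in knockout pools 1, 2 and 3, against 0.304, 0.382 and 0.529 CPM in the control pools. Knockout pools 2 and 3 were alike and pool 1 was lower, yet pool 1 still stood 24.4 times above the highest control pool. The fitted log2 fold change was 6.09 (SE 0.48). herc56.4 (ENSDARG00000074052), a zebrafish relative of the human HERC5 and HERC6 genes, had 1.24, 1.67 and 3.10 CPM in the knockout pools and 0.304, 0.109 and 0.106 CPM in the control pools. Here pool 3 was the highest, unlike for most of the other genes, and the log2 fold change was 3.47 (SE 0.52).

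rsad2 (ENSDARG00000004952) codes for viperin, a radical SAM enzyme that in mammals converts CTP into a nucleotide that stops viral RNA synthesis. It stood at 6.01, 33.9 and 17.4 CPM in knockout pools 1, 2 and 3, against 0.507, 0.327 and 0.794 CPM in the control pools. The pools spread widely, with pool 2 at 5.64 times pool 1, and none overlapped with the controls. The log2 fold change was 5.12 (SE 0.66).

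IFIT proteins are built of tetratricopeptide repeats, and their mammalian relatives bind the ends of foreign RNA. ifit14 (ENSDARG00000071012) had 61, 389 and 132 reads in knockout pools 1, 2 and 3, against 6, 0 and 0 reads in control pools 1, 2 and 3. In CPM these were 3.16, 20.3 and 6.94 in the knockout pools, against 0.304 in control pool 1. For control pools 2 and 3, with 0 reads, the exact 95% Poisson intervals reached 0.201 and 0.195 CPM. There 3 counts would give 0.164 and 0.159 CPM. Control pool 1 thus held each of the control reads of this gene, and its summed reads gave a knockout over control ratio of 96.1 (95% exact binomial interval 43.9 to 263). That interval covers counting error only and leaves out the spread between pools. The fitted log2 fold change was 6.50 (SE 0.99).

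ifit15 (ENSDARG00000043584) had 4.61, 14.2 and 5.31 CPM in the knockout pools and 0.254, 0.491 and 0.424 CPM in the control pools, with a log2 fold change of 4.35 (SE 0.54). Pools 1 and 3 were close, and pool 2 stood apart above them. ifit8 (ENSDARG00000057173) had 13, 77 and 35 reads in the knockout pools and 1, 0 and 2 reads in the control pools. Its ratio of summed reads, knockout over control, was 41.3 with a counting interval of 13.8 to 203, so its fold change is loosely bounded.

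mxe (ENSDARG00000014427) belongs to the Mx genes, dynamin-like GTPases that in mammals assemble on viral nucleoproteins. Its level was 0.726, 2.98 and 3.05 CPM in knockout pools 1, 2 and 3, against 0.0507, 0.109 and 0.106 CPM in the control pools, or 14, 57 and 58 reads against 1, 2 and 2 reads. Pools 2 and 3 were nearly equal and pool 1 was lower, and the log2 fold change was 4.58 (SE 0.71). ifi27.2 (ENSDARG00000039243) is of the ISG12 family of small hydrophobic proteins, whose human member IFI27 is a widely used marker of interferon exposure. It stood at 2.44, 9.56 and 11.4 CPM in the knockout pools and 0.406, 0.327 and 0.476 CPM in the control pools, with a log2 fold change of 4.25 (SE 0.59). As for mxe, knockout pools 2 and 3 lay together above pool 1.

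rnf213b and znfx1 code for large proteins. The human relative RNF213 is an ATPase and ubiquitin ligase that acts on lipid droplets and on bacteria in the cytosol, and mammalian ZNFX1 is a helicase-like RNA sensor placed on mitochondria. rnf213b (ENSDARG00000103551) had 4.20, 19.3 and 12.3 CPM in knockout pools 1, 2 and 3, against 1.17, 0.600 and 0.953 CPM in the control pools, with a log2 fold change of 3.70 (SE 0.53). znfx1 (ENSDARG00000100280) had 4.25, 15.99 and 10.4 CPM in the knockout pools and 2.18, 1.86 and 2.01 CPM in the control pools. It had the most control reads of the 10 genes and the smallest change, a log2 fold change of 2.33 (SE 0.41), and in knockout pool 1 it stood 1.95 times above the highest control pool.

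The knockout pools were not alike. Measured on the log2 CPM scale from the control mean, the median of the 10 genes was 2.36 in knockout pool 1, 4.54 in knockout pool 2 and 3.86 in knockout pool 3, while the median of all tested genes lay within 0.01 of 0 in each. Pool 1 was the lowest knockout pool for 10 of the 10 genes, against 41.2% of all tested genes and 49.2% of the 307 other genes called higher. Pool 2 was the highest for 7 of them and pool 3 for mxe, ifi27.2 and herc56.4. The SD of log2 CPM over the knockout pools had a median of 1.11 for the 10 genes. Over the 12664 tested genes in their level range (mean of 2.01 to 27.9 CPM in the knockout pools) the median SD was 0.17. Over the control pools the median SD of the 10 genes was 0.41, at levels where counting error is large.

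**Figure D2:**
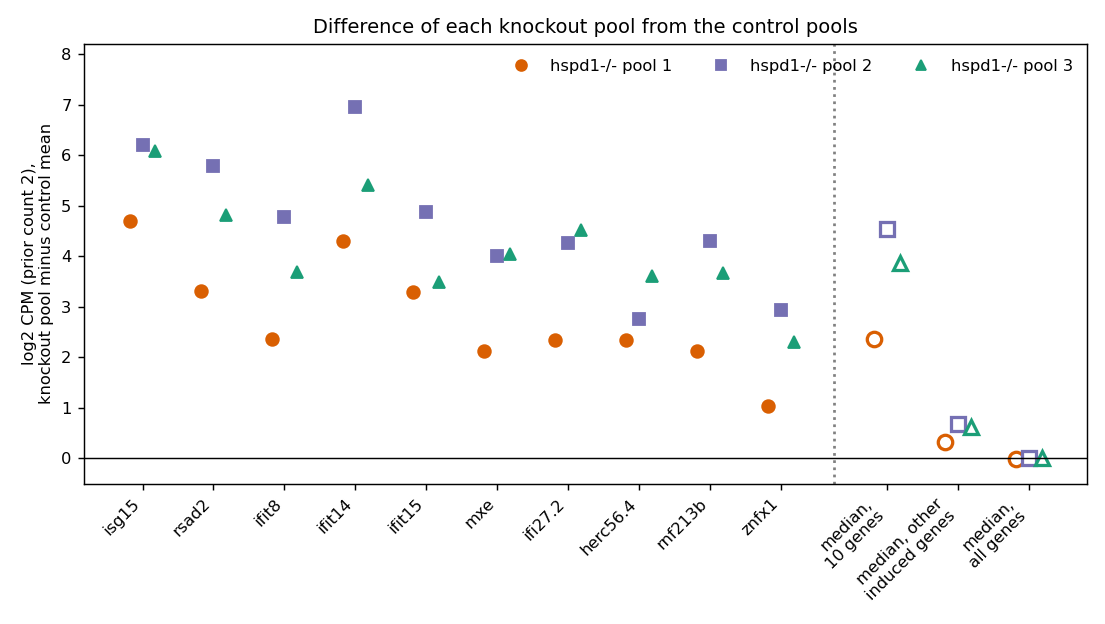
Log2 CPM (prior count of 2) of each knockout pool minus the mean of the control pools, for each of the 10 genes (filled) and as medians of the 10 genes, of 37 other interferon-induced genes and of all tested genes (open). Pool 1 lies lowest for each gene, and the median of all genes lies near 0 in each pool.

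The size of the gap between knockout pools differed from gene to gene. Pool 2 over pool 1 ranged from 1.34 for herc56.4 to 6.43 for ifit14, and the 95% exact binomial interval lay above 1 for 9 of 10 genes, the exception being herc56.4 (0.767 to 2.38). Pool 3 over pool 1 ranged from 1.15 for ifit15 to 4.68 for ifi27.2, with ifit15 (0.856 to 1.55) the exception among 10. These ratios compare single libraries, and their intervals cover counting error only.

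Between pools 2 and 3 the genes parted. Pool 2 was higher beyond counting error for 6 genes, by 2.93 times for ifit14 (interval 2.40 to 3.60), 2.67 for ifit15, 2.19 for ifit8, 1.95 for rsad2, 1.56 for rnf213b and 1.54 for znfx1. The interval held 1 for isg15 (ratio 1.08, 0.971 to 1.21), mxe (0.977) and ifi27.2 (0.839). herc56.4 was lower in pool 2, at 0.539 times pool 3 (0.339 to 0.843). The 3 IFIT genes therefore had the 3 largest ratios of pool 2 to pool 3 among the 10.

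**Figure D3:**
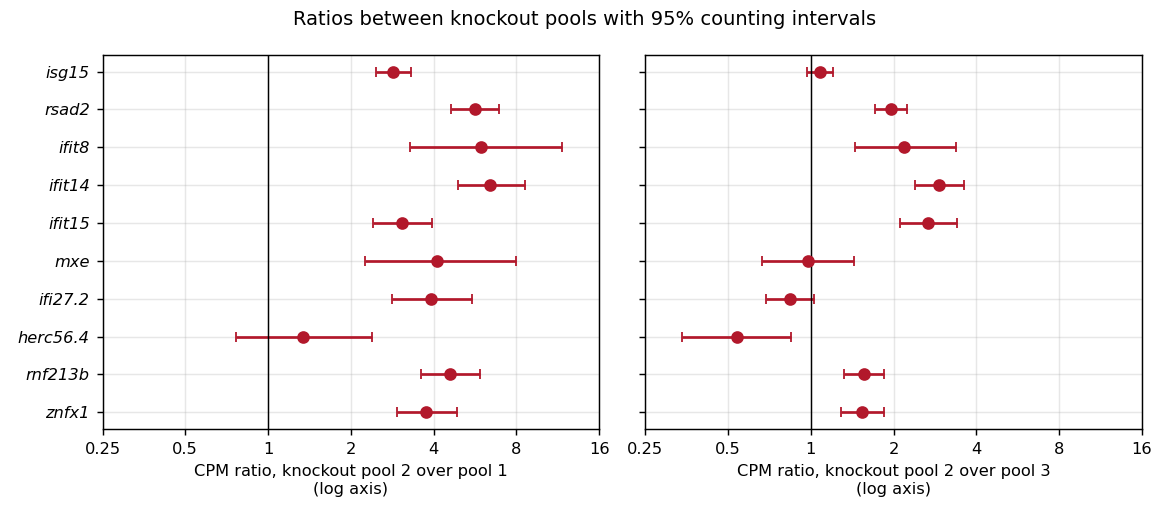
Ratio of CPM between knockout pools for each gene, pool 2 over pool 1 (left) and pool 2 over pool 3 (right), on a log axis with exact binomial 95% counting intervals. On the left 9 of 10 intervals lie above 1, and on the right 6 lie above 1, 3 hold 1 and that of herc56.4 lies below it.

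Markers of leukocytes were summed beside these genes. The 14 macrophage symbols written matched 23 genes, since all copies that share the symbols MPEG1 and MFAP4 were taken. These 23 genes summed to 166, 209 and 201 CPM in knockout pools 1, 2 and 3. The control pools held 176, 191 and 197 CPM. This sum too was lowest in knockout pool 1, and its part in the pool order was not tested. In it the MPEG1 copy ENSDARG00000043093 alone gave 52.8, 75.4 and 75.0 CPM in knockout pools 1, 2 and 3. The 8 neutrophil markers summed to 69.6, 63.7 and 57.5 CPM in knockout pools 1, 2 and 3. The 10 lymphocyte markers summed to 16.4, 15.2 and 13.5 CPM in the same pools. Unlike the macrophage sum, the neutrophil and lymphocyte sums were both highest in knockout pool 1. The control pools held 54.6 to 66.3 CPM of neutrophil markers and 17.1 to 19.9 CPM of lymphocyte markers. The lymphocyte sums thus did not overlap, being lower in the knockout pools, and their part in the levels of the 10 genes was not tested. No marker of the 3 lists was at 0 in every pool. Of 17 macrophage genes tested 13 had a log2 fold change above 0, with a median of 0.17 over the 17, against −0.01 over all genes. Of 8 neutrophil genes tested 5 were above 0, and of 7 lymphocyte genes 0 were. Among the macrophage genes 1 was called higher, against 1.47% of all genes tested. It was an MFAP4 copy (ENSDARG00000088745, log2 fold change 0.76, edgeR adjusted p = 0.0154) and did not pass without knockout pool 2 (0.061) or control pool 3 (0.0533). Of 8 neutrophil and 7 lymphocyte genes edgeR called 0 in either direction, as did DESeq2 and limma-voom. At an unadjusted p under 0.05 (edgeR), 3 macrophage genes were higher and 0 lower. At that same p, 2 neutrophil genes were higher and 1 lower, and 1 lymphocyte gene was lower. The shares of all genes tested at that p are not given here, so these counts stand without a background. Without knockout pool 1 the neutrophil marker MMP9 was called higher (0.0399).

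The ifit, mx and ifi27 families held copies that did not pass the test, while each tested copy of herc56 and rnf213 was called higher. Over all genes tested, 1.47% were called higher. Families were collected by symbol after values had been seen. None of the 3 other IFIT genes tested passed, namely ifit16, ifit11 and ifit12, with log2 differences of 0.22, 0.43 and 0.09 (edgeR adjusted p = 0.64, 0.643 and 0.953). ifit9 and ifit10 were under the filter on low counts. ifit10 had 3, 14 and 19 reads in knockout pools 1, 2 and 3, against 5, 2 and 0 reads in control pools 1, 2 and 3. ifit9 had 2, 2 and 3 reads against 0, 1 and 1 reads. ifit16 lies next to ifit15 and ifit14 in the RefSeq gene order of assembly GRCz12tu. It stood at 8.09, 7.79 and 5.41 CPM in knockout pools 1, 2 and 3, against 5.13, 7.31 and 5.88 CPM in the control pools, so its groups overlapped while those of both neighbours did not. fas, the death receptor gene on the other side of ifit14, was called higher with a log2 fold change of 1.06 (adjusted p = 0.0173). That call was lost without knockout pool 2, control pool 2 or control pool 3 (0.0844, 0.0668 and 0.0837).

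Among Mx genes, mxa was called higher (1.30, 3.82 and 6.31 CPM in knockout pools 1, 2 and 3, against 0.812, 0.546 and 0.794 CPM in the control pools, log2 fold change 2.39, edgeR adjusted p = 0.0253). It did not pass without knockout pool 2 or 3 or control pool 2 or 3 (0.0573 to 0.0791), nor with limma-voom (0.118). mxc, the neighbour of mxe, and mxd stood at log2 differences of 0.07 and 0.35 and did not pass (0.951 and 0.672), and the other 4 Mx genes were under the filter on low counts. Of these, mxb had 9, 19 and 35 reads in knockout pools 1, 2 and 3, against 2, 5 and 5 reads in the control pools. Its groups did not overlap, while those of mxf, mxg and mxh did. On the far side of mxe lies hpxa, a gene for the heme-binding plasma protein hemopexin, which moved the other way. It had 1.14, 1.20 and 1.103 CPM in the knockout pools and 29.9, 7.26 and 20.1 CPM in the control pools, a log2 fold change of −4.05 (SE 0.48).

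The ifi27 genes lie side by side, and 3 of the 7 others tested were called higher. ifi27.6 had the largest change of these, at 0.674, 2.51 and 2.15 CPM in knockout pools 1, 2 and 3, against 0.203, 0 and 0.212 CPM in the control pools (log2 fold change 3.60, edgeR adjusted p = 0.0129). ifi27.4 and ifi27.1 had log2 fold changes of 1.51 and 1.20 (0.0143 and 0.0473). The call of ifi27.4 was lost without control pool 3 (0.0537) and that of ifi27.1 without any pool but knockout pool 1 (0.0567 to 0.108), and with limma-voom (0.0761). ifi27.3, next to ifi27.2, stood at 0.86 and did not pass (0.101), though it passed with DESeq2 (0.0469) and without knockout pool 1 (0.00557). ifi27.5, ifi27.7 and ifi27.8 stood at log2 differences of 0.27, 0.54 and 0.25 (0.44, 0.204 and 0.468).

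All 3 other herc56 genes were called higher. herc56.2 and herc56.3, the next genes along from herc56.4, had log2 fold changes of 3.09 and 2.87 (edgeR adjusted p = 0.0168 and 0.0208), and herc56.1, with 18.8, 28.1 and 26.5 CPM in knockout pools 1, 2 and 3 against 15.9, 15.0 and 14.2 CPM in the control pools, had 0.70 (0.0251). Each of these calls was lost without control pool 2 or control pool 3, and those of herc56.3 and herc56.1 also without knockout pool 2 or 3 (0.0527 to 0.0999 in all). The gene with the symbol RNF213 (ENSDARG00000099465), another copy beside rnf213b, stood at 52.4, 76.2 and 73.2 CPM in knockout pools 1, 2 and 3, against 43.3, 42.0 and 40.8 CPM in the control pools. Its log2 fold change of 0.68 (0.0208) did not pass without knockout pool 2 or 3 or control pool 2 or 3 (0.0593 to 0.0853).

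**Figure D4:**
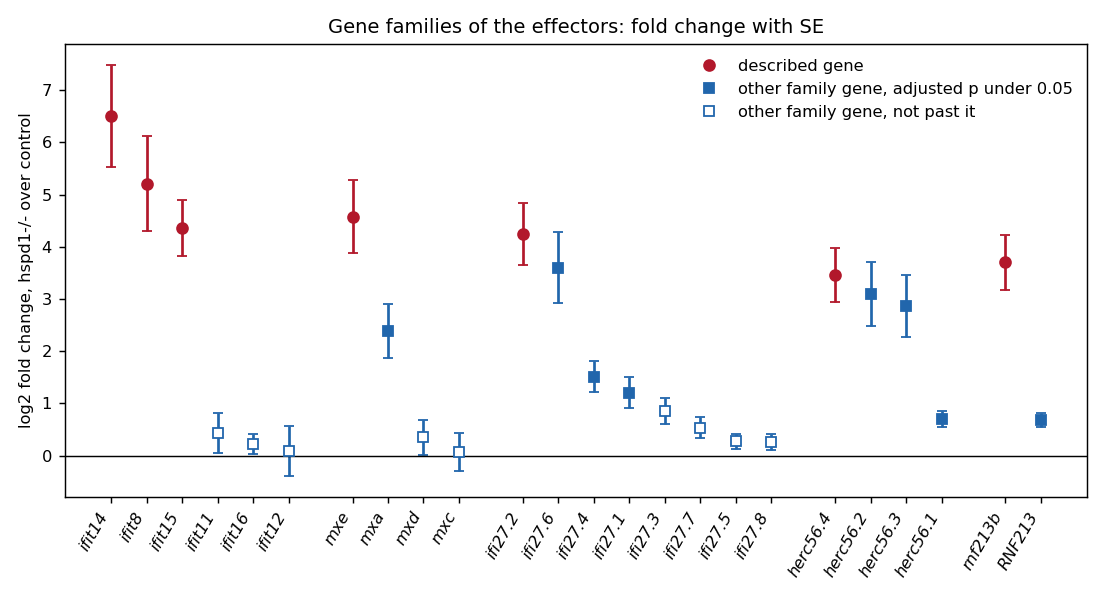
Log2 fold change (hspd1-/- over control, bars are SE) of the tested genes of the ifit, mx, ifi27, herc56 and rnf213 families. Red circles are the genes described here and blue squares the other copies, filled where the adjusted p was under 0.05. The described genes lie at the top of each family, which is how they were picked.

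Of the neighbouring genes outside the families above, CMPK2, fas, hpxa and comtd1 passed the test and the rest did not. Within 2 protein-coding genes on each side of the 10, 23 genes that are not among them could be tested, family copies included. Of these, 7 were called higher and 2 lower, against 1.47% and 2.54% of all genes tested. Besides fas, the higher ones were ifi27 and herc56 copies and CMPK2, a nucleotide kinase gene next to rsad2. CMPK2 had 0.778, 6.17 and 2.79 CPM in knockout pools 1, 2 and 3, against 0.152, 0.109 and 0.159 CPM in the control pools. Its log2 fold change was 4.46 (SE 0.82, edgeR adjusted p = 0.0109), and it did not pass with limma-voom (0.0874). The lower ones were hpxa and comtd1, next to ifit8, at a log2 fold change of −0.93 (0.0108).

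Upstream in the pathway, interferon transcripts themselves were close to the limit of detection. ifnphi1 had 5, 7 and 5 reads in knockout pools 1, 2 and 3, against 4, 1 and 2 reads in the control pools, and ifnphi3 had 1, 8 and 5 reads against 2, 3 and 3 reads. ifnphi2 had 0 reads in each of 6 pools, where 3 counts would give 0.152 to 0.164 CPM per pool. The ifnphi1 reads did not overlap between the genotypes, at these few reads. None of the 6 interferon genes listed passed the filter on low counts. Without that filter 4 could be fitted, and edgeR called 0 of them, with 0 at an unadjusted p under 0.05 (adjusted p = 0.414 for ifnphi1 and 0.698 for ifnphi3).

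Among receptors and signal transducers, stat2 and irf9, which code for parts of the complex that carries the interferon signal into the nucleus, did not pass the test. stat2 stood at 51.4, 79.3 and 90.7 CPM in knockout pools 1, 2 and 3, against 48.6, 50.4 and 52.0 CPM in the control pools, a log2 difference of 0.55 (edgeR adjusted p = 0.139). Knockout pool 1 lay within the range of the control pools, and stat2 passed without it (0.00276) and with DESeq2 (0.0376). irf9 stood at a log2 difference of 0.29 (0.395). The median log2 fold change of the 14 genes tested in this list was 0.08, against −0.01 over all genes.

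Of 9 interferon regulatory factors tested 2 were called higher, against 1.47% of all genes tested. irf3, a factor that sensors activate, stood at 6.59, 8.47 and 8.62 CPM in knockout pools 1, 2 and 3, against 1.17, 1.09 and 1.17 CPM in the control pools. Its pools were close together within each genotype, and its log2 fold change was 2.78 (SE 0.19, edgeR adjusted p = 1.27e-05). IRF7, a factor that is itself induced by interferon, had 9.49, 20.02 and 14.8 CPM in the knockout pools and 3.30, 3.06 and 3.23 CPM in the control pools (log2 fold change 2.21, SE 0.25).

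Of 20 sensors and adaptors tested 3 were called higher, against 1.47% of all genes tested. DHX58, the RNA helicase LGP2 that tunes the sensor MDA5, had 3.47, 10.4 and 11.09 CPM in knockout pools 1, 2 and 3, against 1.88, 1.53 and 0.794 CPM in the control pools (log2 fold change 2.56, edgeR adjusted p = 0.00689). pkz, a fish kinase with domains that bind Z-form nucleic acid, and trim25, a ubiquitin ligase, had log2 fold changes of 2.25 and 0.55 (0.0152 and 0.0318). pkz did not pass without control pool 3 (0.0692) or with limma-voom (0.0517), and trim25 did not pass without knockout pool 2 or 3 or any control pool (0.0646 to 0.134). Not past the test were IFIH1, the gene of MDA5, at a log2 difference of 0.34 (0.48), STING1 at 0.30 (0.65) and mavs at −0.10 (0.702). Of 9 feedback inhibitors, usp18, the protease that removes ISG15, was the 1 called higher (log2 fold change 1.87, 0.0171). Its call was lost without knockout pool 2, control pool 2 or control pool 3 (0.0587 to 0.0751). The SOCS1 gene stood at 0.14 (0.656).

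Of 37 other interferon-induced genes tested, of 56 in the list, 14 were called higher, against 1.47% of all genes tested. Among the 14 were mxa, ifi27.1, ifi27.4, herc56.1, herc56.2, herc56.3 and RNF213, copies in the families of the 10 genes. At least CMPK2, igldcp, herc56.2 and herc56.3 passed the filter on low counts only through the knockout pools. In this list edgeR, DESeq2 and limma-voom called 0 lower, with 1 lower at an unadjusted p under 0.05. The median log2 fold change of the 37 genes was 0.52, against −0.01 over all genes. The list was written with earlier results of these data known, among them the change of igldcp. Without igldcp 13 of 36 were called, which does not remove the effect of the other known results. Over the whole list the count was 5 without knockout pool 2, 7 without knockout pool 3, 5 without control pool 2, 4 without control pool 3 and 8 with limma-voom. helz2a, a helicase gene, had 5.76, 30.7 and 18.6 CPM in knockout pools 1, 2 and 3, against 3.05, 1.86 and 1.85 CPM in the control pools (log2 fold change 3.02, edgeR adjusted p = 0.00729). It passed without any single pool and did not pass with limma-voom (0.0548). xaf1, uba7 (the enzyme that activates ISG15), gig2e and isg20 had log2 fold changes of 1.63, 0.94, 1.83 and 0.56, and each of these calls was lost without at least 1 pool (0.0533 to 0.129). Of 13 antigen-processing genes mhc1zba was called higher (log2 fold change 0.48, 0.0169). It did not pass without knockout pool 2, control pool 2 or control pool 3 (0.0586 to 0.0998).

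**Figure D5:**
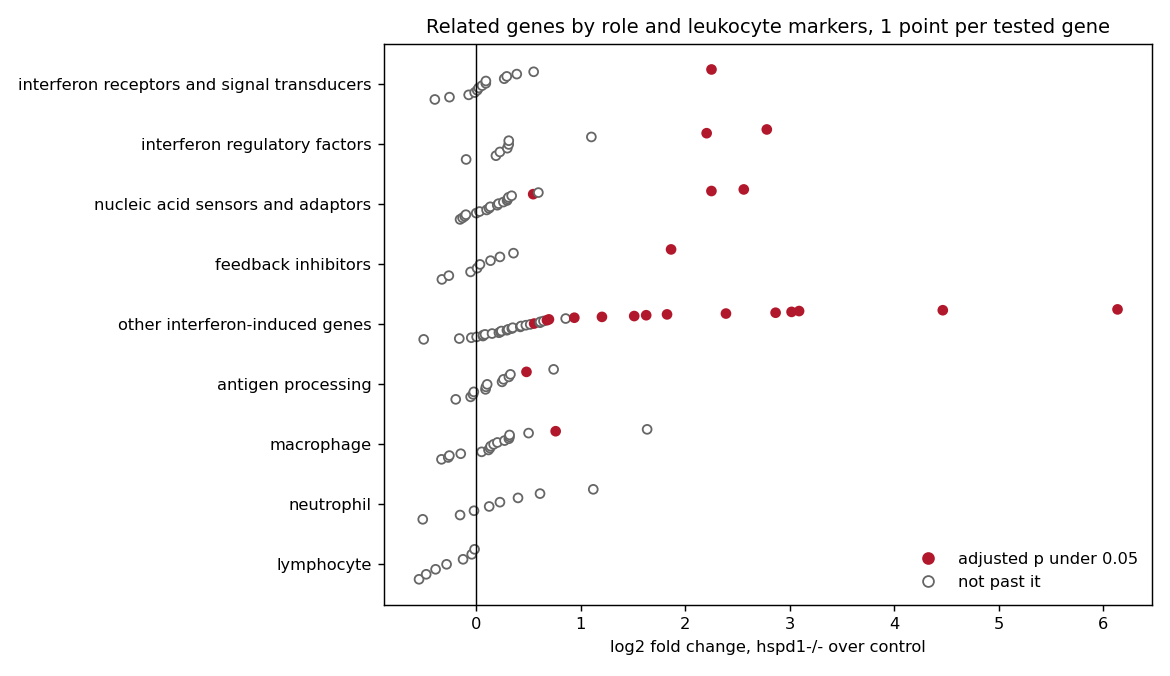
Log2 fold change (hspd1-/- over control) of the tested genes of each related role and of the leukocyte marker lists, 1 point per gene, red where the adjusted p was under 0.05. The 10 effector genes are not among the points. The median was 0.52 for other interferon-induced genes, 0.31 for regulatory factors and −0.28 for lymphocyte markers. In the other lists shown it ran from 0.04 to 0.21.

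The order of the knockout pools recurred in the related genes. Of the 22 genes of these roles that were called higher, knockout pool 1 was the lowest knockout pool for 20 and pool 2 the highest for 13. Over the 307 other genes called higher, which include these 22, pool 1 was the lowest for 49.2% and pool 2 the highest for 44.3%. Of the 37 other interferon-induced genes tested, called or not, pool 1 was the lowest for 23 (62.2%), against 41.2% of all tested genes. The medians of that list from the control mean were 0.32, 0.68 and 0.62 in knockout pools 1, 2 and 3.

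The nearest profiles among 20472 genes with a symbol and a mean of at least 0.5 CPM were sought by root mean square difference on the log2 scale from the median of the 10 genes, over the 6 pools. CMPK2 was the nearest (0.25), followed by zmp:0000000912 (0.26), si:dkey-211g8.8 (0.41), hamp, the gene of the iron hormone hepcidin (0.49), and aste1a (0.56). ifi27.6, mdp1, igfn1.2, helz2a and si:rp71-80o10.4 came next, at 0.63 to 0.73. The 10 genes themselves lay 0.21 to 1.55 from their median. hamp stood at 1.56, 5.85 and 3.73 CPM in knockout pools 1, 2 and 3, against 0.203, 0.382 and 0.106 CPM in the control pools. These genes were picked for their profile over the same pools, so a shared order of pools restates that choice.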

How the data were processed

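RNA was poly(A)-selected and sequenced as non-stranded paired-end reads of 100 bases, per the labels' protocols. The deposited values are estimated counts per Ensembl gene, stored as whole numbers, so rounding before the tests changed nothing. Build GRCz11 and the tools Salmon, DESeq2, Trim Galore and FastQC are named, per the submitters' processing notes, without roles or versions.

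After filterByExpr, the quasi-likelihood test of edgeR 4.0.16 (in R 4.3.3) was run on genotype alone, with TMM scaling and Benjamini-Hochberg adjustment at 0.05. SE was derived from the F statistic. A prior count of 2 entered log CPM. Alternatives were other scalings, filters and thresholds, a replicate block, each pool left out, DESeq2 1.42.0 and limma-voom (limma 3.58.1). Counts of pools of 1 genotype differed beyond sampling noise, so each pool is 1 sample. The labels do not say which mating set each pool came from.

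Symbols came from a table covering 23598 genes, with RefSeq synonyms. Some symbols written for the lists could not be matched, 16 of 75 for other interferon-induced genes. Also unmatched were crfb5 among receptors, rigi, ddx58 and zbp1 among sensors, and mpx and cxcr2 among neutrophil markers. The lists say nothing on unmatched genes. No positions are given, because those at hand belong to another build. The members and lists were chosen with earlier results of these data known. Named are the 10 genes, hspd1, up to 8 called genes per list by smallest p, a preset set of pathway genes, the 10 nearest profiles, and family and neighbour genes chosen after values were seen. Some results are not reported here.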

Additional observations from a re-analysis of the deposited data

How the results depend on the processing

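The 10 genes were called higher under each scaling, tool and threshold tried, with no filter, with the replicate block, and without any single pool (10 to 10 higher and 0 to 0 lower). A filter of 1 CPM in 3 pools left 8 calls, since ifit8 and mxe reach that level in 2 pools and were not tested. Against the control pools, knockout pool 2 alone and knockout pool 3 alone each gave 10 calls, and knockout pool 1 alone gave 6, with ifit8, mxe, herc56.4 and znfx1 not past the threshold. In those fits the lone pool is assumed to vary like the controls, and 0.62%, 0.843% and 0.731% of all genes were called higher for pools 1, 2 and 3. Without control pool 1 the fitted log2 fold change of ifit14 was 10.6, since both remaining controls held 0 reads, and it is no bound. A prior count of 0.5 moved the medians of the 10 genes to 3.13, 4.95 and 4.77 in knockout pools 1, 2 and 3, because the control levels are a few reads.

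Over all genes, 317 were called higher and 549 lower, against 156 and 288 at an adjusted p of 0.01, 121 and 268 with at least a 2-fold change, and 189 to 346 and 360 to 635 without 1 pool. Both counts were lowest without control pool 3 (189 and 360), followed for the higher genes by knockout pool 2 (203) and control pool 2 (205), and for the lower genes by control pool 2 (361). Counts of higher genes without 1 pool ran from 1 to 3 for receptors and signal transducers, 2 to 2 for regulatory factors, 1 to 3 for sensors, 0 to 1 for feedback inhibitors, 4 to 17 for other interferon-induced genes, 0 to 1 for antigen processing, 0 to 1 for macrophage and 0 to 1 for neutrophil markers. Receptors and transducers gave 2 with upper-quartile scaling and 3 with DESeq2. Other interferon-induced genes gave 8 with limma-voom. At an adjusted p of 0.01 the counts were 1 for sensors, 0 for feedback inhibitors, 2 for other interferon-induced genes, 0 for antigen processing and 0 for macrophage markers, and at least 2-fold left 0 for antigen processing and 0 for macrophage markers. Of the 22 related genes called, 7 passed in each fit that left out 1 pool. The cause of these changes was not tested.

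Same-numbered pools did not deviate together (correlations of −0.20, 0.10 and −0.07 for numbers 1, 2 and 3), so the numbers were used as names. With the replicate block antigen processing had 0 calls, and trim25, isg20, herc56.1 and uba7 were not past the threshold. Depth limits the control levels, which rest on few reads.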
